A study of Mus musculus with 36 samples.

Results

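Toll-like receptors (TLRs) are the membrane proteins with which cells sense molecules of bacteria and viruses. The account below follows 9 of these receptors, *Tlr1*, *Tlr2*, *Tlr3*, *Tlr4*, *Tlr6*, *Tlr7*, *Tlr8*, *Tlr9* and *Tlr13*, and the adaptor *Myd88*, in 4 kinds of primary mouse cells. These 10 genes were found by symbol among the 54347 genes of a gene-level count table, and all 10 passed the filter on low counts that left 15340 genes for testing. The table held 36 RNA-seq libraries from C57Bl/6 mice, 3 for each of 12 groups: bone marrow-derived macrophages, adipocytes, myotubes and hepatocytes, each given PBS (control), 5 mM β-hydroxybutyrate (βOHB, the R form as sodium salt) or 5 mM sodium butyrate for 6 h. The liver releases the ketone body βOHB during fasting, butyrate is a short-chain fatty acid made by gut bacteria that inhibits histone deacetylases, and butyrate differs from βOHB in lacking the hydroxyl group on the third carbon. The donors were male mice whose age was not given in the sources used here. The labels give C57Bl/6 for all libraries, but the methods of the study name C57BL/6NHsd for the hepatocyte donors, so that substrain and cell type cannot be told apart where hepatocytes are compared with the other cells. The treatment medium differed as well, with DMEM and serum for adipocytes and macrophages, differentiation medium for myotubes and Williams E medium for hepatocytes. Medium and cell type therefore cannot be told apart, except between adipocytes and macrophages. Adipocytes were grown from the stromal vascular cells of inguinal fat pooled from 3 to 4 mice, macrophages from femoral marrow in medium conditioned by a fibroblast line, and myotubes from hindlimb myoblasts, whereas hepatocytes were taken from the liver by collagenase perfusion. Nothing states that the 3 libraries of a group came from separate animals, so p-values measure the spread between these libraries, which may be technical.

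TLRs fall into 2 groups by where they meet their ligands. *Tlr1*, *Tlr2*, *Tlr4* and *Tlr6* encode receptors of the cell surface: *Tlr4* senses lipopolysaccharide, and *Tlr2* pairs with *Tlr1* or *Tlr6* to sense bacterial lipoproteins. *Tlr3*, *Tlr7*, *Tlr8*, *Tlr9* and *Tlr13* encode receptors of endosomes that read nucleic acids, namely double-stranded RNA (*Tlr3*), single-stranded RNA and its breakdown products (*Tlr7*, *Tlr8*), unmethylated CpG DNA (*Tlr9*) and bacterial ribosomal RNA (*Tlr13*). *Myd88* encodes the adaptor through which most TLRs recruit IRAK kinases and activate NF-κB. *Tlr3* signals through the adaptor encoded by *Ticam1* instead, and *Tlr4* uses both. Macrophages are among the cells best known for these receptors.

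The surface receptor genes lie apart from each other except for the neighbours *Tlr1* (ENSMUSG00000044827, chr5:64924679-64933563, minus strand) and *Tlr6* (ENSMUSG00000051498, chr5:64952031-64960097, minus strand). Positions are from the GENCODE M21 annotation of GRCm38 and span the whole gene. *Tlr2* (ENSMUSG00000027995) is at chr3:83836272-83841767 on the minus strand, and *Tlr4* (ENSMUSG00000039005) is at chr4:66827584-66930284 on the plus strand. Of the endosomal receptors, *Tlr7* (ENSMUSG00000044583, chrX:167304929-167330558) and *Tlr8* (ENSMUSG00000040522, chrX:167242696-167264329) are neighbours on the minus strand of the X chromosome, which also carries *Tlr13* (ENSMUSG00000033777, chrX:106143204-106160493, plus strand). *Tlr3* (ENSMUSG00000031639) is at chr8:45395665-45411080 on the minus strand, *Tlr9* (ENSMUSG00000045322) at chr9:106222598-106226883 on the plus strand, and *Myd88* (ENSMUSG00000032508) at chr9:119335934-119341411 on the minus strand. Because 20% of the 31-base words of *Tlr1* transcripts and 16.6% of those of *Tlr6* also occur in another gene, in most cases in each other, the estimated counts of this pair could be split between them and are less certain. The like share was 8.93% for *Myd88* (shared with *Acaa1a*, an overlapping gene on the opposite strand), 6.1% for *Tlr3* (*Gm45542*, also opposite), 0.667% for *Tlr4* and 0 for *Tlr2*, *Tlr7*, *Tlr8*, *Tlr9* and *Tlr13*.

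PU.1, the product of *Spi1*, is a transcription factor of macrophages and other myeloid cells that binds purine-rich sites with a GAGGAA core. Promoter windows of 300 bases (250 before and 50 after the start site, RefSeq, GRCm38.p6) were at hand for 8 of the 10 members, all but *Tlr4* and *Tlr7*, and GAGGAA was found on either strand in those of *Tlr1*, *Tlr8*, *Tlr9* and *Tlr13*. Of all 27025 genes with a window, 31.3% held these letters. The windows with a match are printed to show where the letters lie. Each is given 5′ to 3′ on the strand of the gene, with the match in capitals, as GAGGAA or as its reverse complement TTCCTC.
*Tlr1* (the second of its 2 windows, chr5:64933509-64933808, minus strand): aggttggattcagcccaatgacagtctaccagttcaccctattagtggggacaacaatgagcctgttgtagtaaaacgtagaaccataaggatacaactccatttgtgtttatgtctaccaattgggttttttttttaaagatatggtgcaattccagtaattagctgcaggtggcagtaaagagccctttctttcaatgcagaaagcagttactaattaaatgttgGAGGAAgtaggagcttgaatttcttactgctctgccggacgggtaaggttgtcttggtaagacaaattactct
*Tlr8* (chrX:167264280-167264579, minus strand): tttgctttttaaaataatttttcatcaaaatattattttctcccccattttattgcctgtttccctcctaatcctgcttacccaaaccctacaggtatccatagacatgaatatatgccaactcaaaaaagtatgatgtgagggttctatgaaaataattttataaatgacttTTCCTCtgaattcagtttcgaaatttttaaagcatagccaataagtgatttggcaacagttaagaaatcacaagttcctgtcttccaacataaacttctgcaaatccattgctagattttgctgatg
*Tlr9* (chr9:106222348-106222647, plus strand): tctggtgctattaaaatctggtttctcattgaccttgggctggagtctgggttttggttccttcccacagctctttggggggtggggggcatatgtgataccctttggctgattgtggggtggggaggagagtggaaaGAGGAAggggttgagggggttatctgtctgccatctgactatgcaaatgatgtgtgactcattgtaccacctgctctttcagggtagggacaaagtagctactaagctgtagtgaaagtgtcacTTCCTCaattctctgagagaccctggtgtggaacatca
*Tlr13* (chrX:106143025-106143324, plus strand): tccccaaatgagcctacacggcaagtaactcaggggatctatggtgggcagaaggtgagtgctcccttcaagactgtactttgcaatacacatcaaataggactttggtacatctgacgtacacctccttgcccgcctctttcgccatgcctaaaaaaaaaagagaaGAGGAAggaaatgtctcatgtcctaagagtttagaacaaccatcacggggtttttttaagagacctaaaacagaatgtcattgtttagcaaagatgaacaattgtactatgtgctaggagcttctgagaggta
The match began 23 bases before the start site in *Tlr1*, 77 before it in *Tlr8* and 83 before it in *Tlr13*, and *Tlr9* held 2 matches, 112 bases before and 12 after the start site. The longer string GAGGAAGT, which contains GAGGAA, was present in *Tlr1* and *Tlr9* and in 3.69% of all genes. The TATA box letters TATAAA were present in windows of *Tlr6*, *Tlr8* and *Myd88* and of 15.7% of all genes. A match is a description of the letters only, and binding was not measured.

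Depth ranged from 18366289 to 23221473 estimated counts per library with a median of 22177562, and none of the 36 pairs of replicates was a repeat of the same library. Levels are given as CPM, the estimated counts of a gene scaled to a common library total after TMM correction for composition. Markers of the labelled cell type were present in each: 13 macrophage markers summed to 19255 to 19424 CPM in the macrophage controls, 5 myotube markers to 19528 to 24660 CPM in the myotube controls, 4 adipocyte markers to 1946 to 2244 CPM in the adipocyte controls and 4 hepatocyte markers to 35858 to 37453 CPM in the hepatocyte controls. The 4 fibroblast markers (*Col1a1*, *Col3a1*, *Pdgfra* and *Thy1*) summed to 5475 to 6305 CPM in the adipocyte controls, above the adipocyte markers, and to 1103 to 1391 CPM in the myotube controls. Macrophage markers were also present elsewhere. They summed to 388 to 458 CPM in the adipocyte controls, 97.3 to 122 CPM in the hepatocyte controls, and 414, 336 and 154 CPM in the 3 myotube controls. In addition, the 4 hepatocyte markers (*Alb*, *Apoa1*, *Ttr* and *Serpina1c*) summed to 30.1, 539 and 124 CPM in the butyrate libraries of myotubes and to 23.6 CPM in βOHB replicate 3, against at most 0.0440 CPM in the other 5 myotube libraries.

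In control cells, macrophages had the highest transcript level of 8 of the 10 members, with each macrophage library above all 9 other controls. *Tlr3* and *Myd88* were the exceptions. These levels are a description without a test. The share of all tested genes with this pattern was not counted, so the 8 of 10 has no background to be set against. For endosomal receptors the gap was wide. *Tlr13* was at 511, 526 and 522 CPM in macrophages, against 15.6 ± 0.810 CPM in adipocytes, 6.77 ± 2.57 CPM in myotubes and 0.425 ± 0.205 CPM in hepatocytes (mean ± SD, n = 3), and the libraries of these cell types did not overlap. *Tlr7*, the single-stranded RNA receptor, was at 232, 224 and 236 CPM in macrophages, and *Tlr8* at 221, 221 and 222 CPM. Both were lower in myotubes (9.76 ± 4.30 and 5.91 ± 2.94 CPM) and adipocytes (6.32 ± 0.466 and 5.56 ± 0.820 CPM), whose libraries overlapped, and lowest in hepatocytes (0.242 ± 0.0973 and 0.124 ± 0.108 CPM). *Tlr9* was the least abundant of the macrophage endosomal receptors on this scale, with 15.9, 16.7 and 17.3 CPM, and had 1.56 ± 0.954 CPM in myotubes, 0.171 ± 0.114 CPM in adipocytes and 1 count over the 3 hepatocyte controls, the last 2 of which overlapped.

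*Tlr3*, which senses double-stranded RNA, did not follow the other endosomal receptors. It was at 31.2, 20.2 and 20.9 CPM in adipocytes, 22.1, 22.2 and 23.3 CPM in macrophages, 13.5, 18.3 and 21.3 CPM in hepatocytes, and 3.21, 3.26 and 3.21 CPM in myotubes. The adipocyte libraries overlapped those of macrophages, while the macrophage libraries lay above those of hepatocytes. The adaptor *Myd88* was likewise widespread, with 70.8, 53.3 and 60.0 CPM in adipocytes and 55.6, 49.9 and 53.4 CPM in hepatocytes, which overlapped. Macrophages held 46.5, 48.9 and 47.4 CPM of *Myd88*, below both, and myotubes 10.7, 9.34 and 8.85 CPM.

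Surface receptors each had a pattern of their own. *Tlr4* was at 121, 126 and 127 CPM in macrophages, 49.5, 57.3 and 54.8 CPM in adipocytes, 42.5, 43.3 and 43.6 CPM in myotubes and 2.03 ± 0.413 CPM in hepatocytes, with no overlap between neighbours in this order. *Tlr2* was at 74.1, 72.4 and 69.0 CPM in macrophages and, unlike *Tlr4*, next highest in hepatocytes with 23.4, 24.9 and 24.8 CPM. It was low in myotubes (3.46 ± 0.413 CPM) and adipocytes (2.65 ± 0.445 CPM), whose libraries overlapped. *Tlr6*, a partner of *Tlr2*, was almost as high in myotubes (16.8, 17.3 and 16.6 CPM) as in macrophages (18.5, 18.7 and 17.4 CPM), while adipocytes and hepatocytes had 1.22 ± 0.461 and 0.896 ± 0.140 CPM and overlapped. *Tlr1*, the other partner, was at 9.43 ± 0.796 CPM in macrophages, 1.50 ± 0.632 CPM in myotubes, 1.05 ± 0.0702 CPM in adipocytes and 0.142 ± 0.0683 CPM in hepatocytes, and the myotube and adipocyte libraries overlapped.

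**Figure D1:**
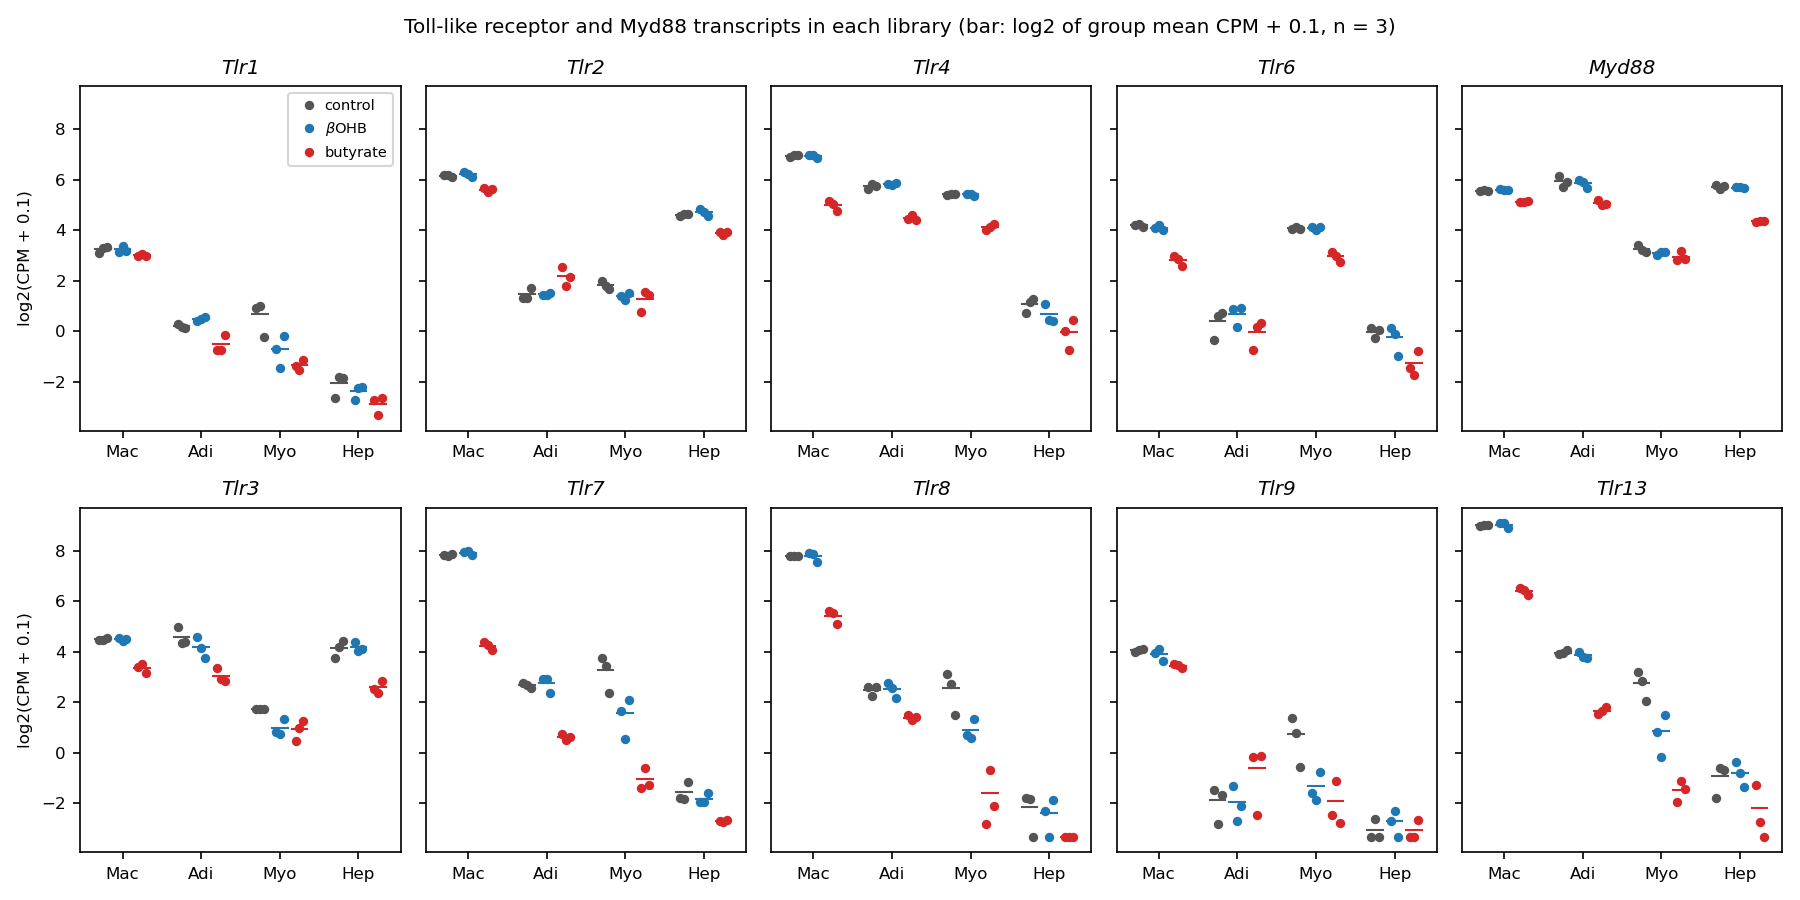
Transcript level of each member in all 36 libraries, as log2(CPM + 0.1), by cell type (Mac, macrophages; Adi, adipocytes; Myo, myotubes; Hep, hepatocytes) and treatment (colour); points are libraries and bars the log2 of the group mean plus 0.1. In macrophages the 3 butyrate libraries of each member lie below its control and βOHB libraries. *Tlr7*, *Tlr8*, *Tlr9*, *Tlr13*, *Tlr1*, *Tlr4* and *Tlr6* have their lowest mean control levels in hepatocytes, where *Tlr6* and *Tlr9* overlap adipocytes.

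Levels of different genes were compared per kb of merged exon length. In macrophage controls the order was *Tlr13* (121 CPM per kb), *Tlr8* (61.8), *Tlr7* (56.5), *Tlr2* (23.8), *Tlr4* (22.4), *Myd88* (18.5), *Tlr6* (4.89), *Tlr9* (4.78), *Tlr3* (4.33) and *Tlr1* (2.82), and only *Tlr6* and *Tlr9* overlapped among neighbours. With the longest transcript as the length, *Tlr4* moved to 30.6 CPM per kb and above *Tlr2*, and *Tlr3* to 5.11 CPM per kb and above *Tlr9* and *Tlr6*, whose libraries it overlapped (4.95). In myotube controls *Tlr4* led with 7.76 CPM per kb, followed by *Tlr6* (4.54) and *Myd88* (3.73). In adipocyte controls the order began with *Myd88* (23.8), *Tlr4* (9.70) and *Tlr3* (4.62), and in hepatocyte controls with *Myd88* (20.6), *Tlr2* (8.08) and *Tlr3* (3.41).

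The members were set beside the 13 macrophage markers by expressing each control level as a percentage of that in macrophages. In adipocytes the markers lay between 1.30% and 15.4% (median 3.98%), and 3 members were above that range, *Myd88* at 129%, *Tlr3* at 107% and *Tlr4* at 43.2%. In myotubes the markers lay between 0.904% and 14.3% (median 2.45%), while *Tlr6* was at 92.8%, *Tlr4* at 34.6%, *Myd88* at 20.2% and *Tlr1* at 15.9%, and *Tlr3* was level with the highest marker at 14.3%. In hepatocytes the markers lay between 0.0242% and 7.53% (median 0.186%), while *Myd88* was at 111%, *Tlr3* at 78.7% and *Tlr2* at 33.9%. *Tlr7*, *Tlr8* and *Tlr13* stayed within the range of the markers in all 3 of these cell types.

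**Figure D2:**
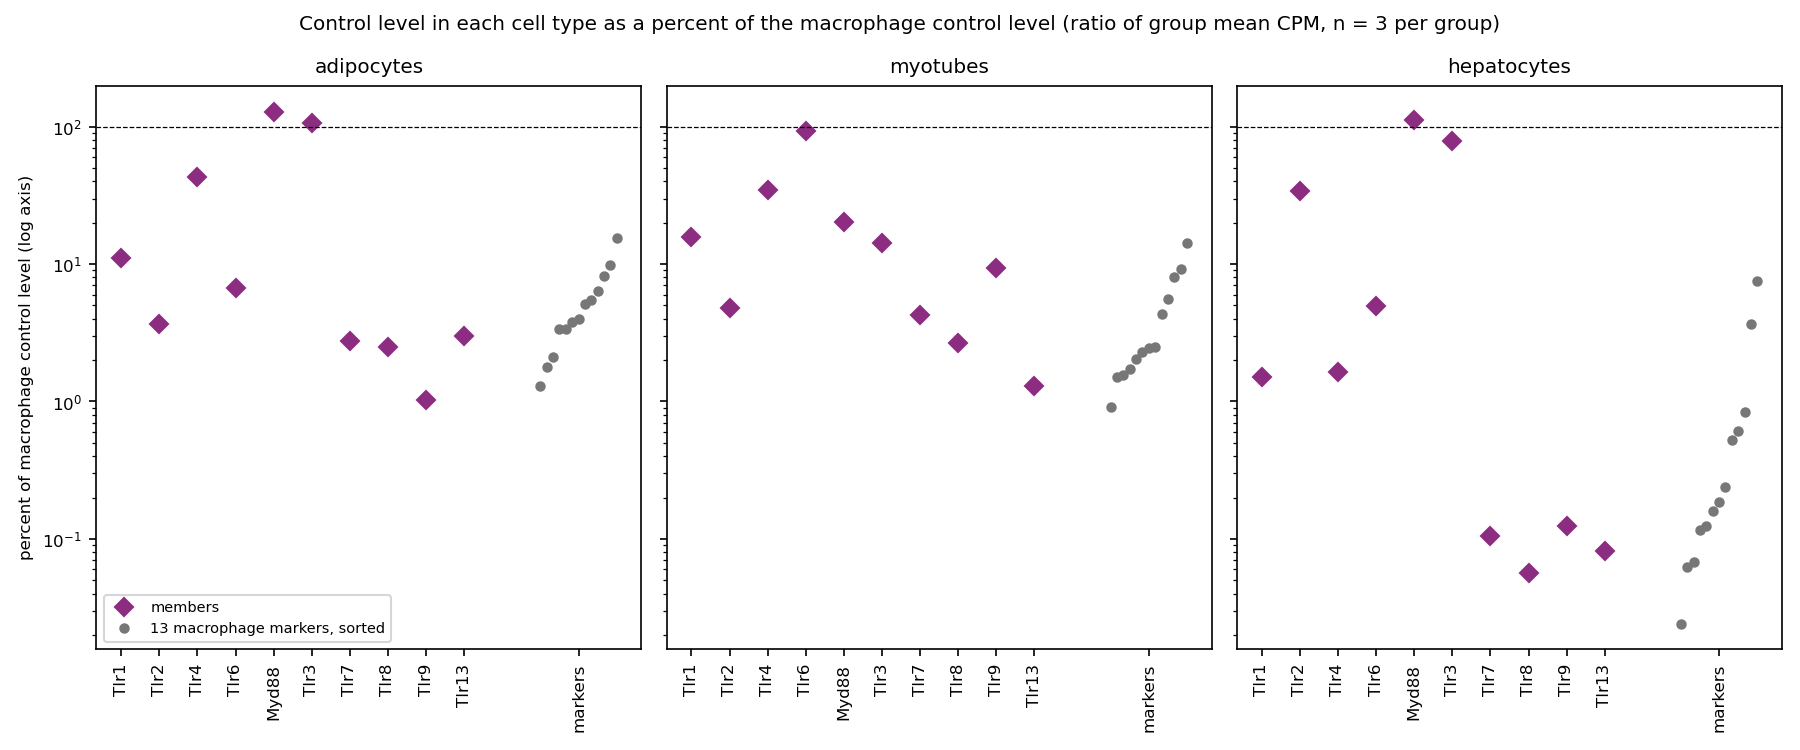
Control level of each member (diamonds) and of 13 macrophage markers (circles, sorted) in adipocytes, myotubes and hepatocytes as a percentage of the level in macrophage controls, on a log axis; each point is a ratio of group mean CPM (n = 3) and the dashed line marks 100%. *Myd88*, *Tlr3* and *Tlr4* in adipocytes, *Tlr6*, *Tlr4*, *Myd88* and *Tlr1* in myotubes, and *Myd88*, *Tlr3* and *Tlr2* in hepatocytes lie above every marker.

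Butyrate lowered 9 of the 10 members in macrophages at a false discovery rate (FDR) below 0.05 in edgeR's quasi-likelihood test, and raised 0. Among all genes tested, 33.2% were lowered and 31.9% raised. With library totals alone in place of TMM scaling, the shares were 21.8% and 43.6%, the median of all genes moved to 0.20, and 8 members were lowered, all but *Tlr1* and *Tlr9*. The members had a median log2 difference from control of -1.26, against 0.00 over all genes tested. The largest fall was that of *Tlr7*, which went from 232, 224 and 236 CPM in controls to 20.9, 19.1 and 16.6 CPM under butyrate, while the βOHB libraries were at 247, 254 and 227 CPM. The butyrate libraries thus lay below all others, at 12.2-fold less than control (log2 difference -3.61, SE 0.17, edgeR adjusted p = 2.86e-17).

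The other RNA sensors of the endosome also fell. *Tlr13* went from 511, 526 and 522 CPM to 93.3, 86.6 and 75.2 CPM (log2 difference -2.61, SE 0.14, edgeR adjusted p = 3.91e-16). *Tlr8* went from 221, 221 and 222 CPM to 49.1, 46.4 and 34.5 CPM (-2.35, SE 0.18, edgeR adjusted p = 1.71e-12). In neither gene did the groups overlap, and the 3 receptors that led the control levels per kb were those that changed most. *Tlr3* fell from 22.1, 22.2 and 23.3 CPM to 10.6, 11.3 and 8.96 CPM (-1.13, SE 0.18, edgeR adjusted p = 3.10e-06). The DNA sensor *Tlr9* changed less, from 15.9, 16.7 and 17.3 CPM to 11.3, 11.2 and 10.3 CPM (-0.61, SE 0.24, edgeR adjusted p = 0.0276). The *Tlr9* groups did not overlap, but the call was lost with DESeq2 (adjusted p = 0.355), with library totals alone (edgeR adjusted p = 0.169) and when any of 5 of the 6 libraries was left out (edgeR adjusted p from 0.0578 to 0.0950).

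Of the surface receptors, *Tlr4* showed the largest difference in macrophages. It fell from 121, 126 and 127 CPM in controls to 36.3, 32.9 and 27.2 CPM under butyrate, 3.88-fold (log2 difference -1.96, SE 0.09, edgeR adjusted p = 9.51e-18). *Tlr6* fell from 18.5, 18.7 and 17.4 CPM to 7.83, 7.14 and 5.88 CPM (-1.39, SE 0.15, edgeR adjusted p = 1.73e-09). *Tlr2*, the partner of *Tlr6*, changed by less, from 74.1, 72.4 and 69.0 CPM to 50.6, 45.8 and 49.7 CPM (-0.56, SE 0.10, edgeR adjusted p = 8.68e-06). *Tlr1* was at 8.52, 9.85 and 9.93 CPM in controls and 7.86, 8.26 and 7.78 CPM under butyrate, groups that did not overlap but whose difference did not pass the test (-0.24, SE 0.17, edgeR adjusted p = 0.208). The adaptor *Myd88* fell from 46.5, 48.9 and 47.4 CPM to 34.7, 34.7 and 35.5 CPM (-0.45, SE 0.08, edgeR adjusted p = 2.30e-05). For comparison, 7 of the 13 macrophage markers fell and 0 rose in these libraries, with a median log2 difference of -0.55, and *Spi1*, the gene of PU.1, went from 230, 234 and 228 CPM to 52.5, 55.3 and 56.1 CPM. The summed fibroblast markers of these cultures were 1489 to 1633 CPM in controls and 950.5 to 1425 CPM under butyrate, where 1 of the 4 was called raised and 0 lowered. Of the 4 endothelial markers 3 fell and 0 rose. All 5 myotube markers rose, with sums of 5.81 to 11.7 CPM in controls and 18.5 to 52.5 CPM under butyrate. The part of these marker changes in those of the members was not tested.

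βOHB had no effect on any member in macrophages that passed the test. EdgeR called 0 of 10, with 0 at an unadjusted p below 0.05, limma-voom and DESeq2 each called 0, and 0% of all genes tested were lowered. Log2 differences from control lay between -0.13 (*Tlr9*) and 0.07 (*Tlr7*). For *Tlr4*, the 95% interval reached from -0.19 to 0.15, for *Myd88* from -0.14 to 0.20, for *Tlr7* from -0.23 to 0.38 and for *Tlr9* from -0.61 to 0.35. In the direct comparison of both compounds at the same dose and time, 8 of 10 members were lower under butyrate than under βOHB and 0 were higher, where 32.8% of all genes were lower and 31.8% higher (21.5% and 43.7% with library totals alone). *Tlr7* differed by -3.68 on the log2 scale (95% interval -4.04 to -3.33, edgeR adjusted p = 1.89e-17) and *Myd88* by -0.48 (-0.64 to -0.31, edgeR adjusted p = 9.13e-06). The 2 members without a call were *Tlr1* (-0.24, 95% interval -0.58 to 0.10) and *Tlr9* (-0.48, -0.97 to 0.01), and both intervals include 0. *Tlr9* was called lower with limma-voom (adjusted p = 0.0146). In edgeR it was called with no filter on low counts (adjusted p = 0.00311), the replicate block (0.0382) and the macrophage libraries alone (0.00234). It was not called with DESeq2, with library totals alone or with any of the 6 libraries left out.

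**Figure D3:**
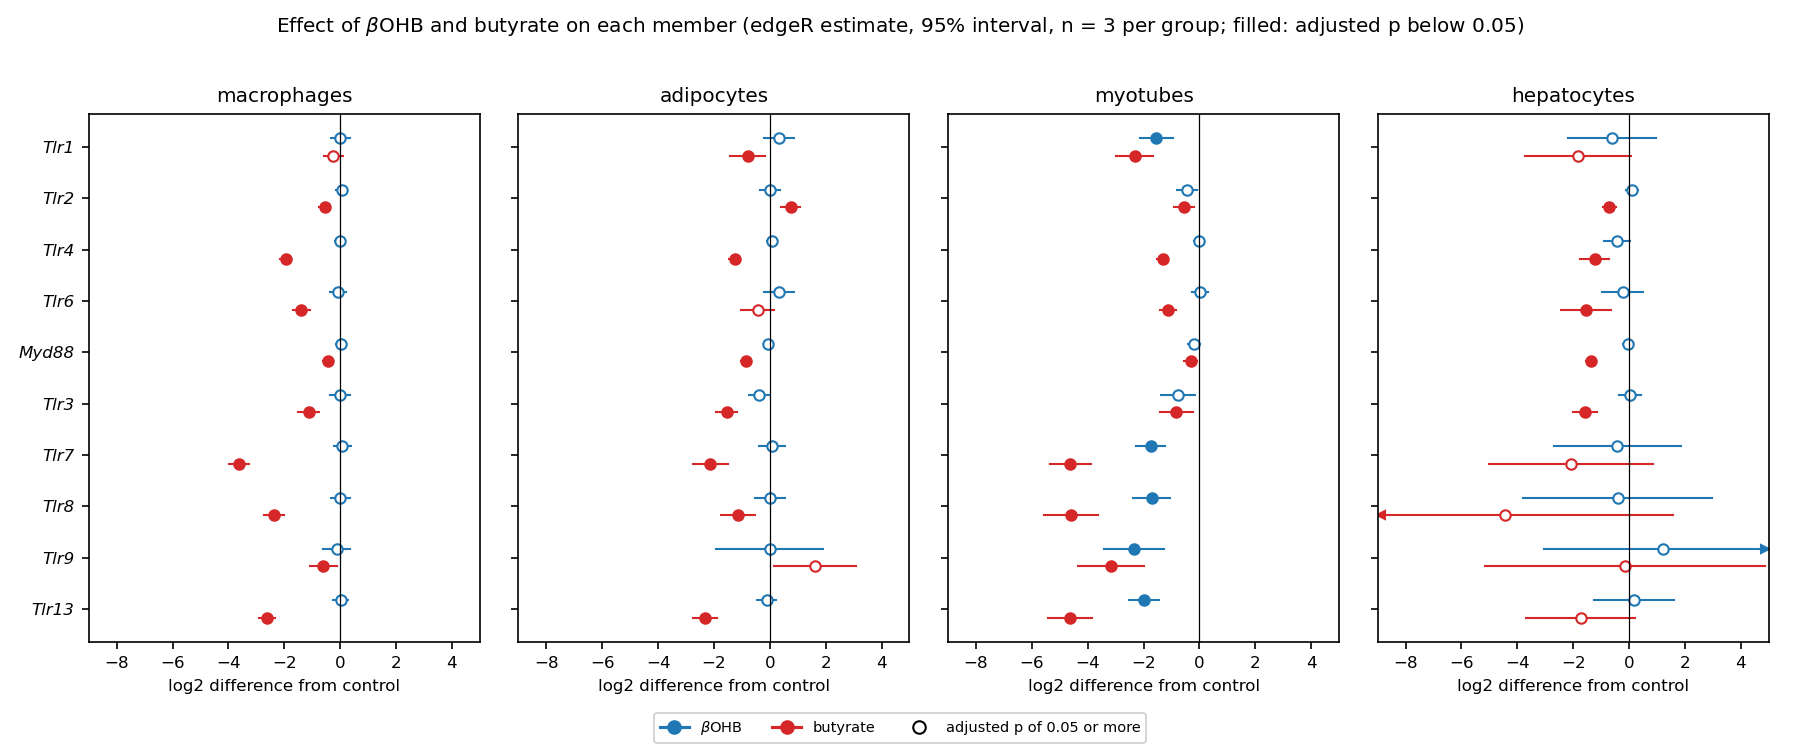
Log2 difference from the control of the same cell type for each member under βOHB and butyrate, with 95% intervals from edgeR (n = 3 per group); filled points have an adjusted p below 0.05 and arrowheads mark intervals that run past the axis. Filled βOHB points appear in myotubes alone, for *Tlr1*, *Tlr7*, *Tlr8*, *Tlr9* and *Tlr13*, whereas butyrate has filled points in each cell type.

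In adipocytes, butyrate lowered 7 members and raised 1 (median log2 difference -0.997, 0.00 over all genes), where 30.3% of all genes were lowered and 30.7% raised (24.7% and 35.2% with library totals alone). *Tlr13* went from 15.0, 15.3 and 16.6 CPM to 2.81, 3.05 and 3.41 CPM (log2 difference -2.33, SE 0.21, edgeR adjusted p = 5.37e-11). *Tlr7* went from 6.80, 6.29 and 5.87 CPM to 1.58, 1.32 and 1.44 CPM (-2.13, SE 0.30, edgeR adjusted p = 4.28e-07), and *Tlr8* fell by 1.13 on the log2 scale (SE 0.30, edgeR adjusted p = 0.00179). As in macrophages, these single-stranded RNA sensors and *Tlr13* had groups without overlap.

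*Tlr3*, *Tlr4* and *Myd88*, whose control levels in adipocytes lay above the range of the macrophage markers, were also lowered there. *Tlr3* fell from 31.2, 20.2 and 20.9 CPM to 10.3, 7.42 and 7.13 CPM (-1.55, SE 0.19, edgeR adjusted p = 2.44e-08). *Tlr4* fell from 49.5, 57.3 and 54.8 CPM to 22.0, 24.2 and 21.3 CPM (-1.26, SE 0.09, edgeR adjusted p = 6.93e-13). *Myd88* fell from 70.8, 53.3 and 60.0 CPM to 36.8, 31.9 and 32.8 CPM (-0.86, SE 0.08, edgeR adjusted p = 2.06e-10). *Tlr1*, near 1 CPM and without enough counts to pass a filter on the adipocyte libraries alone, had a log2 difference of -0.80 (SE 0.30, edgeR adjusted p = 0.0226), a call that was lost when control replicate 1, butyrate replicate 1 or butyrate replicate 2 was left out (edgeR adjusted p from 0.0627 to 0.0991).

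*Tlr2* was the member that rose in adipocytes. It was at 2.43, 2.37 and 3.17 CPM in controls and 5.77, 3.34 and 4.40 CPM under butyrate, with no overlap (log2 difference 0.74, SE 0.17, edgeR adjusted p = 2.69e-04). *Tlr6* (-0.43, 95% interval -1.02 to 0.16) and *Tlr9* (1.63, 95% interval 0.16 to 3.10, edgeR adjusted p = 0.0512) did not pass the test and their groups overlapped. Of the 6 libraries left out singly, 1 gave a call for *Tlr6* (control replicate 1, -0.71, edgeR adjusted p = 0.0318). *Tlr9*, which was below 1 CPM in each adipocyte library and did not pass a filter on these libraries alone, rested on 12 counts over the control group and 36 over the butyrate group, and butyrate replicate 2 alone was as low as the controls, at 0.0824 CPM. DESeq2 called it raised (adjusted p = 0.0322), and so did edgeR without butyrate replicate 2 (adjusted p = 0.00480). The summed macrophage markers of adipocytes were 388 to 458 CPM in controls and 351 to 385 CPM under butyrate, where 3 of 13 fell (*Csf1r*, *Fcgr1* and *Spi1*) and *Mertk* rose. The summed endothelial markers went from between 167 and 192 CPM in controls to between 109 and 128 CPM, and the summed adipocyte markers from between 1946 and 2244 CPM to between 1039 and 1162 CPM. Their part in the results of these libraries was not tested. Adipocyte cultures are mixtures, and in bulk RNA, fewer cells of a type cannot be told apart from less RNA per cell.

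Under βOHB, 0 members were called in adipocytes by edgeR (0.00652% of all genes were lowered), and limma-voom and DESeq2 each called 0. *Tlr3* was the member with an unadjusted p below 0.05, at 24.0, 17.7 and 13.5 CPM against 31.2, 20.2 and 20.9 CPM in controls, which overlapped (log2 difference -0.39, 95% interval -0.74 to -0.03, edgeR adjusted p = 0.676). *Tlr4* (0.08, 95% interval -0.10 to 0.26) and *Myd88* (-0.06, -0.23 to 0.10) had the narrowest intervals. Compared directly, butyrate was below βOHB for 8 members and above it for 1, *Tlr2* (0.74, 95% interval 0.39 to 1.08, edgeR adjusted p = 3.64e-04), where 29.5% of all genes were lower and 30.0% higher (22.8% and 36.7% with library totals alone). The *Tlr6* call was lost with library totals alone (edgeR adjusted p = 0.0501) with the adipocyte libraries alone (0.110) and without βOHB replicate 1, βOHB replicate 3 or butyrate replicate 1 (0.0902 to 0.145). The largest of these differences was that of *Tlr13* (-2.22, -2.65 to -1.78, edgeR adjusted p = 2.30e-10). *Tlr9*, below 1 CPM in each of these libraries, was not called (log2 difference 1.64). DESeq2 called it higher under butyrate (adjusted p = 0.0333). So did edgeR with the replicate block (adjusted p = 0.0175), library totals alone (0.0425), no filter (0.00261) and without 2 of the 6 libraries. Limma-voom and RLE factors gave no call.

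In myotubes, butyrate lowered all 10 members (median log2 difference -1.82, 0.00 over all genes), where 33.4% of all genes were lowered and 33.1% raised (25.2% and 40.9% with library totals alone, median of all genes 0.13). Butyrate replicate 3 stood apart from the other 2 libraries of its group (chi-square per gene of 37.0 and 41.7, against 8.57 between those), and without it 9 members were called, all but *Myd88*. The 5 myotube markers summed to 17431, 17593 and 12127 CPM under butyrate, below the controls, and 3 of them fell (*Acta1*, *Ckm* and *Myog*), whose part was not tested. *Tlr7*, *Tlr8*, *Tlr9*, *Tlr13* and *Tlr1* varied between the control libraries and fell to near 0. *Tlr7* was at 13.4, 10.9 and 5.01 CPM in controls and 0.285, 0.566 and 0.313 CPM under butyrate (log2 difference -4.62, SE 0.36, edgeR adjusted p = 3.21e-12). *Tlr13* was at 9.22, 7.00 and 4.09 CPM in controls and 0.163, 0.364 and 0.268 CPM under butyrate (-4.64, SE 0.38, edgeR adjusted p = 7.19e-12), and *Tlr8* fell by 4.60 on the log2 scale (SE 0.48, edgeR adjusted p = 1.98e-09). Without butyrate replicate 2, the library with the most macrophage markers of its group, the log2 difference was -6.01 for *Tlr8* and -4.48 for *Tlr9* (-3.17 with all libraries). In each of these receptors control replicate 3 was the lowest of the controls, though above every butyrate library.

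*Tlr4* and *Tlr6* were steady between the control libraries of myotubes and fell without nearing 0. *Tlr4* was at 42.5, 43.3 and 43.6 CPM in controls and 16.0, 17.3 and 18.7 CPM under butyrate (-1.31, SE 0.10, edgeR adjusted p = 4.82e-13). *Tlr6* was at 16.8, 17.3 and 16.6 CPM in controls and 8.79, 7.85 and 6.57 CPM under butyrate (-1.12, SE 0.15, edgeR adjusted p = 1.03e-07). *Tlr3* (-0.83), *Tlr2* (-0.56) and *Myd88* (-0.32) changed by less, and *Myd88* was the member whose groups overlapped. Without butyrate replicate 1 these 3 calls were lost, with an edgeR adjusted p of 0.0850 for *Tlr3*, 0.0967 for *Tlr2* and 0.0651 for *Myd88*, and that of *Myd88* was also lost without control replicate 1 (0.0759), without butyrate replicate 3 (0.0563) and with library totals alone (0.142). The *Tlr3* call was also lost with limma-voom (adjusted p = 0.0773). Those of *Tlr2* and *Myd88* were lost on the myotube libraries alone (edgeR adjusted p = 0.065 and 0.0739). Without the butyrate libraries in which hepatocyte markers exceeded 100 CPM (replicates 2 and 3), an alternative added after these markers were seen, all 10 members were still called, with the lone remaining library assumed to vary like the other groups. With only the 9 myotube libraries in the model, 7 members passed its filter and 5 were called. *Tlr1*, *Tlr9* and *Tlr13* did not pass it, and entered the test on all 36 libraries through their levels in other cell types.

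βOHB lowered 5 members in myotubes, *Tlr1*, *Tlr7*, *Tlr8*, *Tlr9* and *Tlr13*, where 2.56% of all genes were lowered, and raised 0. Of these, *Tlr1*, *Tlr9* and *Tlr13* could not be tested on the myotube libraries alone, whose filter they did not pass, and *Tlr7* and *Tlr8* were not called there. The members had a median log2 difference of -1.15, against 0.02 over all genes. *Tlr7* was at 13.4, 10.9 and 5.01 CPM in controls and 3.08, 1.38 and 4.21 CPM under βOHB (log2 difference -1.75, SE 0.25, edgeR adjusted p = 8.79e-05). *Tlr13* was at 9.22, 7.00 and 4.09 CPM in controls and 1.65, 0.800 and 2.71 CPM under βOHB (-1.97, SE 0.26, edgeR adjusted p = 6.97e-05). *Tlr8* was at 8.53, 6.47 and 2.73 CPM in controls and 1.52, 1.42 and 2.44 CPM under βOHB (-1.71, SE 0.32, edgeR adjusted p = 0.00137). In these 3 genes the groups did not overlap, but control replicate 3 and βOHB replicate 3 lay close to each other.

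The other 2 lowered receptors were scarcer. *Tlr9* was at 2.48, 1.63 and 0.572 CPM in controls and 0.230, 0.178 and 0.488 CPM under βOHB (-2.35, SE 0.52, edgeR adjusted p = 0.00678), and its call was lost without control replicate 1 (edgeR adjusted p = 0.148), βOHB replicate 1 (0.0523) or βOHB replicate 2 (0.0699). *Tlr1* was at 1.82, 1.90 and 0.768 CPM in controls and 0.509, 0.270 and 0.771 CPM under βOHB (-1.54, SE 0.29, edgeR adjusted p = 0.00138), and these groups overlapped through replicate 3 of each. With only the 9 myotube libraries in the model, 0 of the 7 members that passed its filter were called, with log2 differences of -1.79 for *Tlr7* (edgeR adjusted p = 0.298) and -1.76 for *Tlr8* (0.312), and 0 of 12964 genes were called in all (1128 at an unadjusted p below 0.05). Limma-voom on all libraries called 4 members and DESeq2 called 6.

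*Tlr4* and *Tlr6* gave no such difference under βOHB. *Tlr4* was at 44.0, 43.6 and 40.9 CPM, on both sides of the controls (log2 difference -0.01, 95% interval -0.19 to 0.17, edgeR adjusted p = 0.991). *Tlr6* was at 17.5, 16.3 and 17.5 CPM (0.02, 95% interval -0.27 to 0.30, edgeR adjusted p = 0.988). *Tlr3* (-0.76, 95% interval -1.36 to -0.16), *Tlr2* (-0.45, -0.81 to -0.09) and *Myd88* (-0.18, -0.40 to 0.03) had βOHB libraries that all lay below the controls, but did not pass the test across all genes (edgeR adjusted p = 0.208, 0.219 and 0.468).

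The macrophage markers of the myotube libraries moved with the lowered receptors. Under βOHB, 12 of the 13 markers fell (median log2 difference -1.80, range -2.02 to -0.35), and their sum was 83.8, 61.6 and 152 CPM, against 414, 336 and 154 CPM in controls. Under butyrate the same 12 fell, *Mertk* rose, and the sum was 32.3, 107 and 50.4 CPM. Control replicate 3, with the lowest marker sum of the controls, also had the lowest *Tlr1*, *Tlr7*, *Tlr8*, *Tlr9* and *Tlr13* of the controls, and βOHB replicate 3, with the highest marker sum of its group, had the highest level of each of these receptors in its group. *Csf1r*, the receptor of a macrophage growth factor, was at 45.6, 37.9 and 14.6 CPM in controls and 8.68, 5.69 and 13.4 CPM under βOHB, and none of the 13 markers was at 0 throughout a group. The part of these markers in the changes of the receptors was not tested. In contrast, *Tlr4* was at 42.5 and 43.6 CPM in the controls with the highest and the lowest marker sum.

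**Figure D4:**
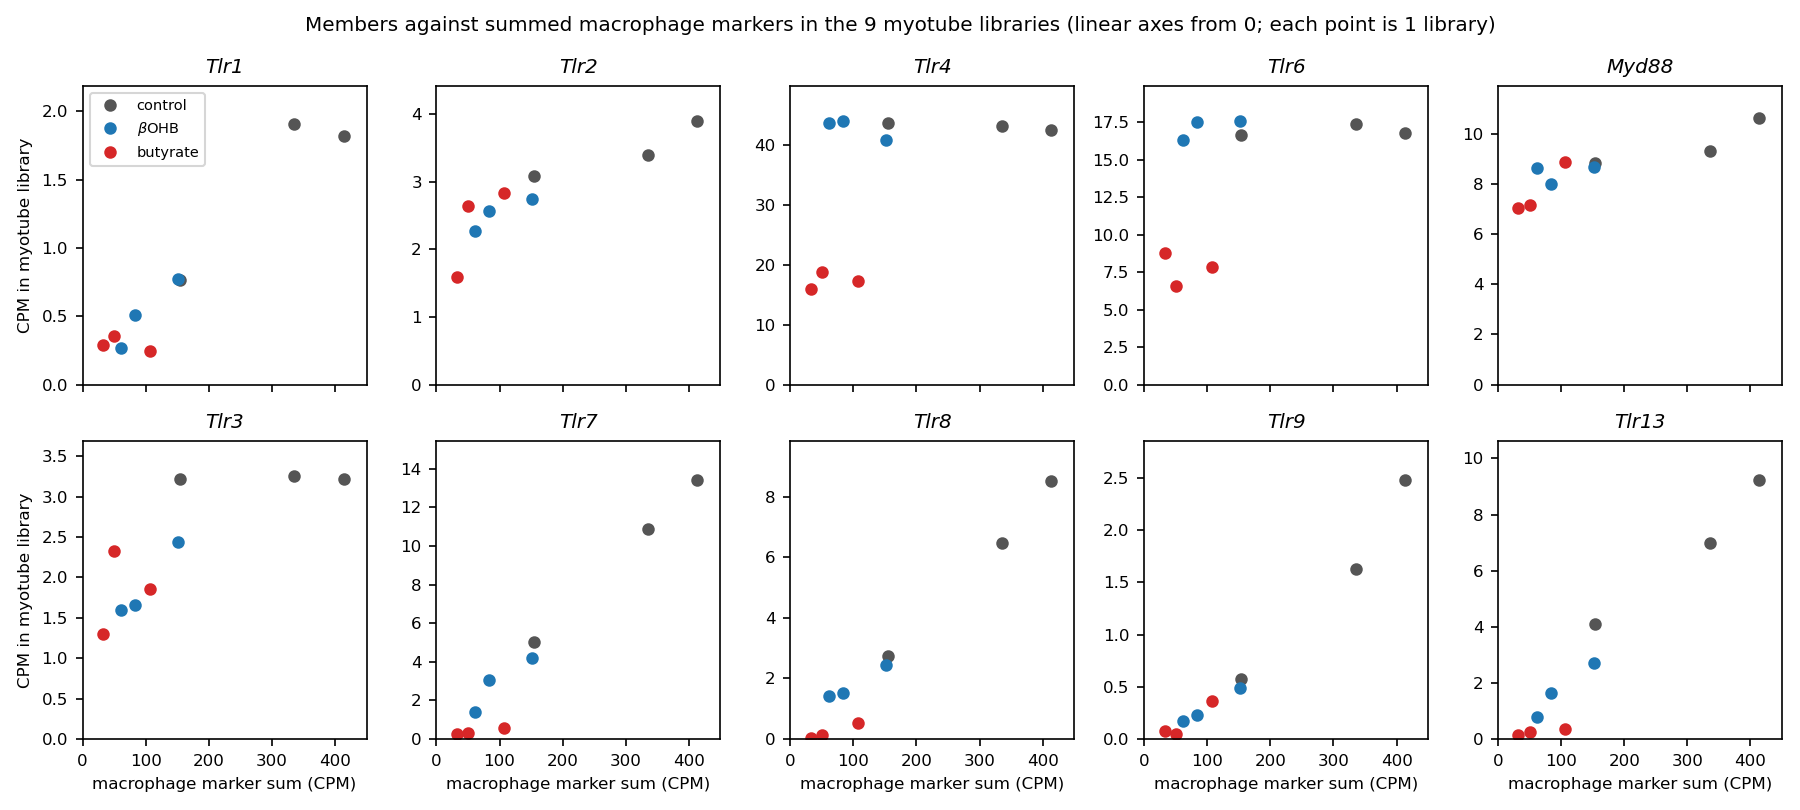
CPM of each member against the summed CPM of 13 macrophage markers in the 9 myotube libraries, on linear axes that start at 0; each point is a library and its colour the treatment. Control replicates 1 and 2, with marker sums of 414 and 336 CPM, hold the most *Tlr1*, *Tlr7*, *Tlr8*, *Tlr9* and *Tlr13*, while *Tlr4* and *Tlr6* are level across the control and βOHB libraries and lower in the 3 butyrate libraries.

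Compared directly in myotubes, butyrate was below βOHB for 5 members, where 32.9% of all genes were lower and 33.1% higher (21.8% and 44.4% with library totals alone), and above it for 0. These were *Tlr8* (log2 difference -2.89, 95% interval -4.15 to -1.62, edgeR adjusted p = 1.72e-04, and -4.30 without butyrate replicate 2), *Tlr7* (-2.87, -3.81 to -1.93), *Tlr13* (-2.67, -3.71 to -1.63), *Tlr4* (-1.30, -1.50 to -1.11) and *Tlr6* (-1.14, -1.45 to -0.84). Their groups did not overlap, and *Tlr13* did not pass the filter on the myotube libraries alone. In the same comparison 6 of the 13 macrophage markers were lower and *Mertk* higher, 4 of the 5 myotube markers were lower and all 4 hepatocyte markers higher, and their part was not tested. No difference passed the test for *Tlr2* (-0.11, 95% interval -0.49 to 0.27), *Tlr3* (-0.06, -0.72 to 0.59) and *Myd88* (-0.14, -0.36 to 0.09), nor for the scarce *Tlr1* (-0.78, -1.59 to 0.03) and *Tlr9* (-0.82, -2.49 to 0.85), whose intervals are wide. Leaving out 1 library moved *Tlr9* to between -2.12 (without butyrate replicate 2) and -0.27 (without βOHB replicate 3) with no call, and *Tlr1* was called without βOHB replicate 2 (-1.09, edgeR adjusted p = 0.0177).

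In hepatocytes, butyrate lowered 5 members, where 32.4% of all genes were lowered and 31.0% raised, and raised 0. *Myd88* fell from 55.6, 49.9 and 53.4 CPM to 20.0, 20.8 and 20.6 CPM (log2 difference -1.37, SE 0.09, edgeR adjusted p = 1.91e-14). *Tlr3* fell from 13.5, 18.3 and 21.3 CPM to 5.67, 5.10 and 7.09 CPM (-1.59, SE 0.21, edgeR adjusted p = 8.80e-08). *Tlr2* fell from 23.4, 24.9 and 24.8 CPM to 15.3, 14.1 and 15.4 CPM (-0.71, SE 0.11, edgeR adjusted p = 2.64e-06). These were the members well measured in hepatocytes, and in each the butyrate libraries lay below the controls.

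*Tlr4* (2.03 ± 0.413 CPM in controls, 0.886 ± 0.383 CPM under butyrate) and *Tlr6* (0.896 ± 0.140 and 0.314 ± 0.147 CPM) also fell, by 1.23 and 1.53 on the log2 scale. *Tlr6* did not pass a filter on the hepatocyte libraries alone and entered the test through its levels in other cell types. The remaining 5 members rested on few counts. Over the 3 control and the 3 butyrate libraries, *Tlr13* had 21 and 7 counts, *Tlr7* 12 and 3, *Tlr1* 7 and 2, *Tlr8* 6 and 0, and *Tlr9* 1 and 1, so no fold is given for them. A count of 0 allows up to 3 counts over the group. DESeq2, and edgeR with no filter on low counts, each called 8 members lowered here. Macrophage markers were scarce in hepatocyte controls, with 12 of the 13 at 3.69% or less of their macrophage level and *Cd68* at 7.53%. Under butyrate they had a median log2 difference of -0.77, and edgeR called *Mertk* raised and 0 lowered. The summed Kupffer cell markers were 5.47 to 6.21 CPM in controls and 1.93 to 2.81 CPM under butyrate, and the summed endothelial markers 77.3 to 92.2 CPM and 27.2 to 32.4 CPM. The part of these cells in the changes of the members was not tested.

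βOHB had no effect that passed the test in hepatocytes: edgeR called 0 of 10 members, with 0 at an unadjusted p below 0.05, limma-voom and DESeq2 each called 0, and 0% of all genes were lowered. The interval was -0.20 to 0.14 for *Myd88*, -0.11 to 0.33 for *Tlr2* and -0.35 to 0.41 for *Tlr3*. Compared directly, butyrate was below βOHB for 5 members and above it for 0, where 33.0% of all genes were lower. *Tlr3* differed by -1.62 (95% interval -2.04 to -1.19), *Myd88* by -1.34 (-1.52 to -1.16) and *Tlr2* by -0.82 (-1.05 to -0.59). *Tlr6* (-1.30, -2.21 to -0.39) and *Tlr4* (-0.80, -1.35 to -0.24) were called too, but their groups overlapped, and both calls were lost without βOHB replicate 1 or butyrate replicate 2, which left 3 members. The *Tlr4* call was also lost with limma-voom (adjusted p = 0.0546) and on the hepatocyte libraries alone (edgeR adjusted p = 0.0623). *Tlr13*, with 27 counts under βOHB and 7 under butyrate, was called lower with limma-voom (adjusted p = 0.0204) and DESeq2 (0.00586). EdgeR called it with no filter (adjusted p = 0.00159) and without 1 of the 6 libraries, but not with RLE factors or library totals alone.

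Whether the butyrate effect differed between cell types was tested on the difference itself. Between macrophages and adipocytes it differed for 7 of 10 members, where 36.6% of all genes differed. *Tlr2* fell in macrophages and rose in adipocytes (difference of log2 effects, macrophages minus adipocytes, -1.31, SE 0.19, edgeR adjusted p = 2.89e-06), and *Tlr7* fell by more in macrophages (-1.48, SE 0.39, edgeR adjusted p = 0.00332). *Myd88* fell by less in macrophages (0.41, SE 0.12, edgeR adjusted p = 0.00560). The call of *Tlr6* was lost without each of 4 of the 12 libraries (adipocyte control replicate 1, adipocyte butyrate replicates 2 and 3 and macrophage butyrate replicate 3, edgeR adjusted p from 0.0556 to 0.139). That of *Tlr9*, which was below 1 CPM in each adipocyte library and entered the test through its macrophage level, was lost without adipocyte control replicate 2 or butyrate replicates 1 or 3 (edgeR adjusted p from 0.0759 to 0.112) and with limma-voom (0.0754). Between macrophages and myotubes 5 members differed, where 43.5% of all genes did. *Tlr4* fell by more in macrophages (-0.64), whereas *Tlr1*, *Tlr8*, *Tlr9* and *Tlr13* fell by more in myotubes (2.03 to 2.56). Of these, *Tlr1*, *Tlr9* and *Tlr13* entered the test through their levels outside myotubes, and without myotube butyrate replicate 2 the difference was 3.66 for *Tlr8* and 3.87 for *Tlr9*. In the same comparison 12 of the 13 macrophage markers fell by more in myotubes, and their part in these differences was not tested.

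Between macrophages and hepatocytes the effect differed for *Myd88*, which fell by less in macrophages (0.93, SE 0.12, edgeR adjusted p = 2.20e-07), and for *Tlr4* (-0.72, SE 0.29, edgeR adjusted p = 0.0436), where 44.4% of all genes differed. The *Tlr4* call was lost with limma-voom (adjusted p = 0.138), with library totals alone (edgeR adjusted p = 0.115) and without each of 7 of the 12 libraries (edgeR adjusted p up to 0.362, without hepatocyte butyrate replicate 3). The βOHB effect in myotubes differed from the mean effect in the other 3 cell types for 1 member, *Tlr13* (-2.00, SE 0.37, edgeR adjusted p = 0.00553), where 1.06% of all genes differed. *Tlr13* did not pass the filter on the myotube libraries alone, and 6 of the 13 macrophage markers were also called more negative in myotubes. *Tlr7* (-1.66, edgeR adjusted p = 0.134) and *Tlr1* (-1.44, edgeR adjusted p = 0.119) did not pass with all libraries, but both did with DESeq2, which called 4 members, and both did when myotube control replicate 3 or βOHB replicate 3 was left out, which gave 3.

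Further parts of the pathway were followed in 5 lists with 60 genes, 53 of which were tested. Butyrate raised 14 and lowered 22 of them in macrophages, 15 and 18 in adipocytes, 13 and 21 in myotubes, and 14 and 20 in hepatocytes, with median log2 differences of -0.22, -0.08, -0.06 and -0.06, against 0.00, 0.00, 0.00 and -0.01 over all genes. The lowered share was 41.5%, 34.0%, 39.6% and 37.7%, and the raised share 26.4%, 28.3%, 24.5% and 26.4%, beside 30.3% to 33.4% and 30.7% to 33.1% of all genes. βOHB lowered 7 in myotubes (13.2%, against 2.56% of all genes) and raised 0, and edgeR called 0 in the other cell types. In these myotube libraries 12 of the 13 macrophage markers also fell (median log2 difference -1.80), their part was not tested, and 0 of 12964 genes were called when the myotube libraries were fitted alone. Butyrate was above βOHB for 12, 13, 15 and 12 and below it for 23, 17, 14 and 20 in macrophages, adipocytes, myotubes and hepatocytes, that is, above it for 22.6% to 28.3% and below it for 26.4% to 43.4%, beside 30.0% to 33.1% and 29.5% to 33.0% of all genes. The butyrate effect was more positive in macrophages than in adipocytes for 9 and more negative for 17, with 8 and 12 against myotubes and 10 and 12 against hepatocytes. As shares these are 17.0% and 32.1%, 15.1% and 22.6%, and 18.9% and 22.6%, beside 17.2% and 19.5%, 22.0% and 21.5%, and 22.4% and 22.0% of all genes. The βOHB effect was more negative in myotubes than in the other cell types for 4 (7.55%, against 1.00% of all genes) and more positive for 0, and in the same comparison 6 of the 13 macrophage markers were more negative, whose part was not tested.

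The other receptors and adaptors did not move as a block. *Tirap*, which encodes the bridge between *Myd88* and *Tlr2* or *Tlr4*, was lowered by butyrate in all 4 cell types. In macrophages it went from 24.9, 24.5 and 25.6 CPM to 8.95, 8.38 and 7.86 CPM (log2 difference -1.57, edgeR adjusted p = 5.27e-17). *Sarm1*, an inhibitory adaptor, was raised in all 4, from 0.763, 0.705 and 0.692 CPM to 1.61, 1.56 and 1.82 CPM in macrophages. *Ticam1*, the adaptor of *Tlr3*, was raised in macrophages (0.27), adipocytes (0.86) and myotubes (0.69) and did not pass in hepatocytes (0.03). *Ticam2*, which joins *Tlr4* to *Ticam1*, was lowered in macrophages (-1.08) and myotubes (-1.65) and raised in adipocytes (0.94).

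*Tlr5*, the flagellin receptor, went against the members. It was at 0.509, 0.554 and 0.216 CPM in macrophage controls and 2.74, 2.65 and 2.71 CPM under butyrate (log2 difference 2.66, edgeR adjusted p = 5.34e-10), without overlap. It also rose in adipocytes (1.40) and myotubes (2.02) and fell in hepatocytes (-0.51). *Tlr11* and *Tlr12* did not pass the filter. Of these 7 genes, 5 were tested, and butyrate raised 3 and lowered 2 in macrophages, 4 and 1 in adipocytes, 3 and 2 in myotubes, and 1 and 2 in hepatocytes, where 30.7% to 33.1% of all genes were raised and 30.3% to 33.4% lowered.

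Of 13 co-receptors and trafficking factors, butyrate lowered 8 in macrophages and raised 0, lowered 4 and raised 1 in adipocytes, lowered 7 and raised 2 in myotubes, and lowered 5 and raised 3 in hepatocytes. The lowered share was thus 61.5% in macrophages (33.2% of all genes) and 53.8% in myotubes (33.4%), and near that of all genes in adipocytes (30.8% against 30.3%) and hepatocytes (38.5% against 32.4%). *Cd14*, which hands lipopolysaccharide to *Tlr4*, fell in macrophages from 333, 366 and 359 CPM to 67.8, 68.4 and 75.9 CPM (log2 difference -2.32, edgeR adjusted p = 2.24e-15) and was lowered in each of the other cell types. *Unc93b1*, the chaperone that carries the endosomal receptors to their compartment, fell from 313, 316 and 309 CPM to 169.7, 172 and 174 CPM in macrophages (-0.86). *Cd180*, a receptor related to *Tlr4*, fell from 224, 237 and 234 CPM to 61.9, 60.0 and 59.0 CPM (-1.94). Under βOHB in myotubes, *Cd14* (-1.18), *Cd180* (-1.40), *Unc93b1* (-0.39) and *Ctss* (-1.83), which encodes a protease that cleaves endosomal TLRs, were lowered, together with the macrophage markers of these libraries, and none of these calls was made on the myotube libraries alone.

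Among 18 kinases, ligases and interferon regulatory factors of the signal, butyrate raised 6 in each cell type and lowered 6 in macrophages, adipocytes and myotubes and 10 in hepatocytes. A count of 6 is 33.3% of the list, near the share of all genes, and 10 is 55.6%, against 32.4% of all genes. *Irak1*, the kinase that binds *Myd88*, fell in all 4 cell types, in macrophages from 103, 97.5 and 96.4 CPM to 56.6, 57.5 and 53.4 CPM (-0.83, edgeR adjusted p = 7.12e-15). *Peli3*, a ubiquitin ligase of the IRAK complex, rose in all 4, in macrophages from 3.26, 2.82 and 3.55 CPM to 6.65, 6.48 and 7.31 CPM (1.08). *Irf5*, a transcription factor downstream of *Myd88*, fell in macrophages from 124, 130.0 and 131 CPM to 47.4, 47.1 and 47.6 CPM (-1.44), and it was the gene of this list that fell under βOHB in myotubes (-1.18). The latter call was not made on the myotube libraries alone, in which the macrophage markers fell too.

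The 8 negative regulators were split, with 3 raised and 2 lowered in macrophages, 4 and 3 in adipocytes, 2 and 1 in myotubes, and 1 and 2 in hepatocytes. The raised shares were 12.5% to 50% and the lowered shares 12.5% to 37.5%, on both sides of those of all genes. *Cyld*, a deubiquitinase, rose in macrophages (0.63) and *Nfkbia*, the inhibitor of NF-κB, fell (-0.61). Of 14 genes that TLR signalling induces, 9 were tested, and butyrate raised 2 and lowered 4 in macrophages, lowered 4 in adipocytes and 5 in myotubes and raised 0 in either, and raised 3 and lowered 1 in hepatocytes. The lowered share was 44.4% in macrophages (33.2% of all genes), 44.4% in adipocytes (30.3%), 55.6% in myotubes (33.4%) and 11.1% in hepatocytes (32.4%). *Ccl4* went from 13.6, 13.7 and 12.2 CPM to 2.17, 2.88 and 3.05 CPM in macrophages (-2.28), whereas *Cxcl10* went from 0.466, 0.353 and 0.822 CPM to 2.88, 2.18 and 3.30 CPM (2.31). *Tnf*, with -0.85 in macrophages under butyrate, and *Ccl3*, with -0.39, were also lowered by βOHB in myotubes (-2.04 and -1.49), where both were at or below 1.38 CPM. In these libraries 12 of the 13 macrophage markers also fell, their part was not tested, and neither call was made on the myotube libraries alone.

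Over the 12 group means of log2 CPM, the tested genes whose pattern was most like that of each member were as follows, as a description in which all genes share the same libraries. *Tlr13* was most like *Spi1* (Pearson r = 0.997) and *Arhgap30* (0.996), *Tlr8* like *Myo1f* (0.997) and *P2ry6* (0.997), *Tlr7* like *Ncf1* (0.994) and *Clec4n* (0.991), *Tlr9* like *Tagap* (0.996) and *AC166110.3* (0.992), and *Tlr1* like *Csf2rb2* (0.994) and *Ptprc* (0.993). *Tlr4* was most like *Zeb2* (0.995) and *Cers5* (0.987), *Tlr6* like *Itga4* (0.985) and *Pdcl* (0.980), and *Tlr2* like *Tpp1* (0.988) and *Ap5z1* (0.987). *Tlr3* (0.990) and *Myd88* (0.985) shared *Gm20559* as the nearest gene, followed by *Rbm3* (0.988) and *Adar* (0.981). Among the members, *Tlr8* and *Tlr13* were the most alike (0.989), and *Tlr6* and *Myd88* the least (-0.42).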

How the data were processed

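Counts per gene were estimated by the authors with Salmon 1.2.1 on GENCODE M25 transcripts (GRCm38.p6) from paired-end reads and summed per gene with tximport, with a correction for average transcript length and the total of each library. The deposited table holds these estimated counts for 36 libraries, whose totals differ. Lengths used for levels per kb came from the annotation. Conditions and replicate numbers came from the labels, and symbols and positions from GENCODE M21 (54094 of 54347 genes found; release M25 was not used here). Estimated counts were rounded and tested in R 4.3.3 with edgeR 4.0.16 (TMM scaling, quasi-likelihood F test, all 36 libraries in 1 model with a mean per group, Benjamini-Hochberg adjustment over the 15340 genes that exceeded 1 CPM in 6 or more libraries). A call is an FDR below 0.05. Standard errors were taken from the F statistic, and intervals cover 95%. An exact permutation test of 3 against 3 libraries cannot go below p = 0.1 and was not used.

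All 10 members were described. Of the pathway lists, the other receptors and adaptors, the raised and the lowered gene of smallest p under butyrate in macrophages, and the genes called under βOHB were named. The members and lists were chosen with earlier results of these data known. Alternatives were limma-voom (limma 3.58.1), DESeq2 1.42.0, RLE factors, library totals alone, 3 other filters, the libraries of 1 cell type alone, the replicate number as a block and each library left out. Leaving out myotube libraries rich in hepatocyte markers was added after the data were seen.

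On simulated data with 200 changed genes of 15340, edgeR recovered 94% of 2-fold and 69% of 1.5-fold changes in the macrophage comparison (11 false calls), and 94% and 74% in the myotube comparison (13 false calls). The changed genes were drawn only from those above a minimum expected count in controls, with as many raised as lowered. Far fewer genes changed than under butyrate in the data. These rates therefore do not carry over to members with few counts.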

Additional observations from a re-analysis of the deposited data

Results flagged for a closer look

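For several members the effect of a compound differed between cell types in the test of that difference (edgeR, adjusted p below 0.05). The butyrate effect in macrophages differed from that in adipocytes, myotubes and hepatocytes for 7, 5 and 2 of the 10 members. Of all genes, 36.6%, 43.5% and 44.4% differed, so the counts against myotubes and hepatocytes are near or below the share of all genes. The βOHB effect in myotubes differed for 1 member and for 1.06% of all genes. Values are differences of log2 effects. For butyrate, macrophages minus adipocytes, they were -1.31 for *Tlr2*, -0.70 for *Tlr4*, -0.96 for *Tlr6*, -1.48 for *Tlr7*, -1.22 for *Tlr8*, -2.23 for *Tlr9* and 0.41 for *Myd88*. *Tlr9* in adipocytes rested on 12 control counts, was below 1 CPM in each adipocyte library and entered the test through its macrophage level, and its difference lost the call with limma-voom (adjusted p = 0.0754) and without each of 3 libraries (edgeR adjusted p from 0.0759 to 0.112). That of *Tlr6* was lost without each of 4 libraries (0.0556 to 0.139). For macrophages minus myotubes, they were 2.08 for *Tlr1*, -0.64 for *Tlr4*, 2.25 for *Tlr8*, 2.56 for *Tlr9* and 2.03 for *Tlr13*. For macrophages minus hepatocytes, they were -0.72 for *Tlr4* and 0.93 for *Myd88*. The *Tlr4* call was lost with limma-voom (adjusted p = 0.138), library totals alone (edgeR adjusted p = 0.115), the replicate block (0.0566) and without each of 7 of 12 libraries. For βOHB in myotubes minus the mean of the other 3 cell types, the value was -2.00 for *Tlr13*. In myotubes, *Tlr1*, *Tlr8*, *Tlr9* and *Tlr13* (of which *Tlr1*, *Tlr9* and *Tlr13* did not pass a filter on the myotube libraries alone) moved together with the macrophage markers of the same libraries, whose part was not tested.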

How the results depend on the processing

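Over all alternatives, no member with a call changed its sign. When 1 library was left out, 1270 of the single-member results kept their side of the threshold, 37 lost a call and 13 gained one. The counts of called members that moved by over 1.5 times were as follows. When each cell type was fitted alone, 5 members were called under butyrate in myotubes (10 with all libraries), 0 under βOHB in myotubes (5) and 3 for butyrate minus βOHB in hepatocytes (5), with 7, 7 and 4 members tested. DESeq2 and no filter on low counts each called 8 under butyrate in hepatocytes (5). For the βOHB effect in myotubes minus other cell types, DESeq2 called 4 and no filter 6, against 1. For the butyrate effect in macrophages minus hepatocytes, limma-voom and library totals alone each called 1, against 2. With 1 library left out, the counts were 3 to 6 for butyrate minus βOHB in hepatocytes, 1 to 2 for macrophages minus hepatocytes and 1 to 3 for the βOHB effect in myotubes minus other cell types. Over all genes, βOHB in myotubes gave 446 calls, 895 with no filter and 0 with the myotube libraries alone. With no filter, βOHB gave 35 calls in macrophages (0 with the filter), 192 in adipocytes (1) and 48 in hepatocytes (1).

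Nothing states whether libraries with the same replicate number were paired. Deviations of same-numbered libraries correlated between -0.06 and 0.09 in macrophages and between -0.11 and 0.22 in adipocytes. In myotubes they correlated between -0.26 and 0.27, and in hepatocytes between -0.06 and 0.01. With 3 libraries per group these values cannot exclude pairing. With the replicate number as a block, 1 member was called for macrophages minus hepatocytes (2 without the block), and 3 single-member results gained and 1 lost a call. Low counts limit *Tlr1*, *Tlr7*, *Tlr8*, *Tlr9* and *Tlr13* in hepatocytes.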
